A study of Mus musculus with 21 samples.

Results

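DNase I hypersensitive sites were described at the 4 genes of the IL-6 family cytokine receptors, Lifr, Osmr, Il6st and Il6ra, in individual mouse livers. The sites comprised every DNase-seq peak that overlapped an annotated gene body (mm9, GENCODE vM1) or lay within 10 kb of it. Joined by an overlap of at least 1 bp across livers, the 331 peaks formed 30 sites of 68362 in the genome, of which 12 were at Lifr, 4 at Osmr, 4 at Il6st and 10 at Il6ra. The genes had been chosen from earlier results of the same libraries, in particular the presence of a site 6.6 kb into Lifr, which had a peak in all 8 livers of one class and none of the 10 livers of the other. The values of that site are therefore given as a description, without a test.

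The livers came from untreated, pituitary-intact male CD-1 mice, an outbred stock, aged 8 to 10 weeks, 1 liver per library. Each was classed by the STAT5 DNA-binding activity of a protein extract of the same liver in an electrophoretic mobility shift assay at the time of death. The groups were STAT5_High (8 livers) and STAT5_Low (10 livers), which shared strain, sex, age and lack of treatment. A further 3 livers, 2 titled high and 1 titled low, were titled as outliers and were not analysed here, so both classes are those left after that selection, and for 2 of these 3 the treatment label names the other class.

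In hepatocytes, Il6ra binds interleukin-6 and Lifr binds leukaemia inhibitory factor, and each pairs with Il6st (gp130), the shared signal-transducing chain. Osmr pairs with the same chain to bind oncostatin M in mouse. The complexes activate JAK kinases and mainly STAT3, which drives the acute phase proteins of the liver and the feedback inhibitor Socs3. STAT5 in male liver is activated in pulses by growth hormone, and DNase I cutting marks chromatin that is open to regulatory proteins.

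Reference sequences (mm9, forward strand) are shown for the 3 intronic sites that the values below turn on, as 300 bp centred on the median summit. The first is the Lifr site with peaks in STAT5_High livers only (chr15:7085984-7086283), with capitals for the 82 bp spanned by its 8 summits. The second is its neighbour with a peak in all 18 livers (chr15:7087706-7088005), with capitals for the STAT motif TTCNNNGAA. The third is the strongest Il6ra site (chr3:89705457-89705756), with capitals for the part of the span of its 18 summits inside the window.
Lifr 6.6 kb: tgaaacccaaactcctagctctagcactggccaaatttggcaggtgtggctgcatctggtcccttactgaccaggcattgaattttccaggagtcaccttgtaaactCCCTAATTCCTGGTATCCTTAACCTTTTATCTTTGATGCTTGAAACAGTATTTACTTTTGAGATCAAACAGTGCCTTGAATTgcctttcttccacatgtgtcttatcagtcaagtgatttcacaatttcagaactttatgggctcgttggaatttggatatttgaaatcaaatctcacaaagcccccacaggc
Lifr 8.4 kb: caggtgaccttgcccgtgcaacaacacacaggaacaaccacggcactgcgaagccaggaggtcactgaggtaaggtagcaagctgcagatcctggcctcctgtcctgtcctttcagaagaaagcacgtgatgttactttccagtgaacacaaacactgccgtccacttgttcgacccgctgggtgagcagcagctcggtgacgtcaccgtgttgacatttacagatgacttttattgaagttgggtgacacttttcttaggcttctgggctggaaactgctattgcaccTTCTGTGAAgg
Il6ra 11.5 kb: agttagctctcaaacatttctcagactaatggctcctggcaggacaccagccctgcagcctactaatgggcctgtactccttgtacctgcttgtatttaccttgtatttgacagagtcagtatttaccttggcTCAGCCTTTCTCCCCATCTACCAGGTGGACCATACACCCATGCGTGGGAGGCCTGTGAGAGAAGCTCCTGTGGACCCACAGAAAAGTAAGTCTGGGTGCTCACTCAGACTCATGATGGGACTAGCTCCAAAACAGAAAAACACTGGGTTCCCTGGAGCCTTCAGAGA

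TTCNNNGAA, searched on both strands (it reads the same on each), occurred in 6 of the 30 sites (20%), against 20.3% of all 68362 sites. The 6 matches are shown with 10 bases on each side and the motif in capitals, since they are the places at these genes that carry the letters of a STAT site.
Lifr 8.4 kb: ctattgcaccTTCTGTGAAgggcacactc
Lifr 17.1 kb: caggggccaaTTCCGTGAAgcaaatttgg
Lifr 30.6 kb: atttgttcacTTCTGTGAAgtgtaagtgt
Osmr 10.0 kb upstream: ctataaagcaTTCCTTGAAgaatatactt
Il6ra 25.0 kb: ttttgtttacTTCTGGGAAtttccactta
Il6ra 40.5 kb: ggaactcatgTTCTGGGAAcagaccctag

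The Lifr 6.6 kb site held no such match. Its window held 3 stretches with 1 of the 6 fixed letters changed, among them TTCCTGGTA inside the summit span, and 74.2% of all 300 bp windows hold at least 1 stretch of that kind, with a mean of 1.43 per window. In the 300 bp windows it was in 3 of 30 (10%), against 12.5% of all windows. A total of 7 motifs were searched. TGANTCA (AP-1) occurred in 9 of the 30 sites (30%), against 18.99% of all sites. TGTTTAC (FOXA) occurred in 7 of the 30 (23.3%), against 11.6% of all sites, and TTGCNNCAA (C/EBP) in 3 (10%), against 5.42%. The STAT motif with a spacer of 4 bases was in 5 (16.7%), against 14.9%, ATCGAT (ONECUT) in 1 (3.33%), against 3.26%, and CAAAGTCCA (HNF4) in 0, against 2.61%. Whole sites differ in width, with a median of 600 bp at the 4 genes and 546 bp over all sites. In the equal 300 bp windows, AP-1 was in 7 of 30 (23.3%), against 11.8% of all windows, and FOXA in 4 (13.3%), against 7.34%. C/EBP was in 1 (3.33%), against 2.87%, and the STAT motif with a spacer of 4 in 4 (13.3%), against 8.09%. ONECUT was in 1 (3.33%), against 1.95%, and HNF4 in 0, against 1.84%. Motif matches describe letters of the reference genome and were not measured as binding.

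The libraries held 12890880 to 23395665 tags and 18673 to 45144 peaks. Pileup is the number of overlapping tags, each extended to 200 bp, at a peak's highest point, and it is given here per 1000000 tags of the library (PPM). STAT5_High replicate 4 had the fewest peaks, and its median pileup over the 11748 sites present in all 18 livers was 1.67 PPM, against 2.78 to 4.56 in the other livers. Of the 8 hepatocyte marker genes, 6 had a peak within 1 kb of a start in all 18 livers, against 0 of 5 macrophage, 0 of 5 endothelial, 0 of 5 stellate, 1 of 4 cholangiocyte (Sox9) and 0 of 4 lymphocyte marker genes. Summed pileup at the endothelial markers was 15.3 to 47.1 PPM in STAT5_High livers and 22.8 to 49.7 in STAT5_Low livers, and at the macrophage markers 10.3 to 29.6 in STAT5_High livers and 16.9 to 30.3 in STAT5_Low livers. The part of other cell types in the results was not tested. In whole liver, a site open in fewer cells and a site less open in each cell cannot be told apart.

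Most sites at the 4 genes were shared between the classes. Of the 30, 6 had a peak in all 18 livers (20%, against 17.2% of all sites) and 5 had a peak in 1 liver (16.7%, against 21.6% of all sites). All 6 shared sites were at Lifr and Il6ra, 3 at each gene. In STAT5_High livers, Lifr had 4 to 10 sites with a peak (median 7), against 6 to 7 (median 6.5) in STAT5_Low livers. Il6ra had 5 to 7 (median 5.5) in STAT5_High livers and 6 to 8 (median 6) in STAT5_Low livers. Osmr had 1 to 3 in STAT5_High livers and 0 to 3 in STAT5_Low livers, with a median of 2 in both classes. Il6st had 0 to 2 in STAT5_High livers and 1 to 4 in STAT5_Low livers, again with a median of 2 in both.

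**Figure D1:**
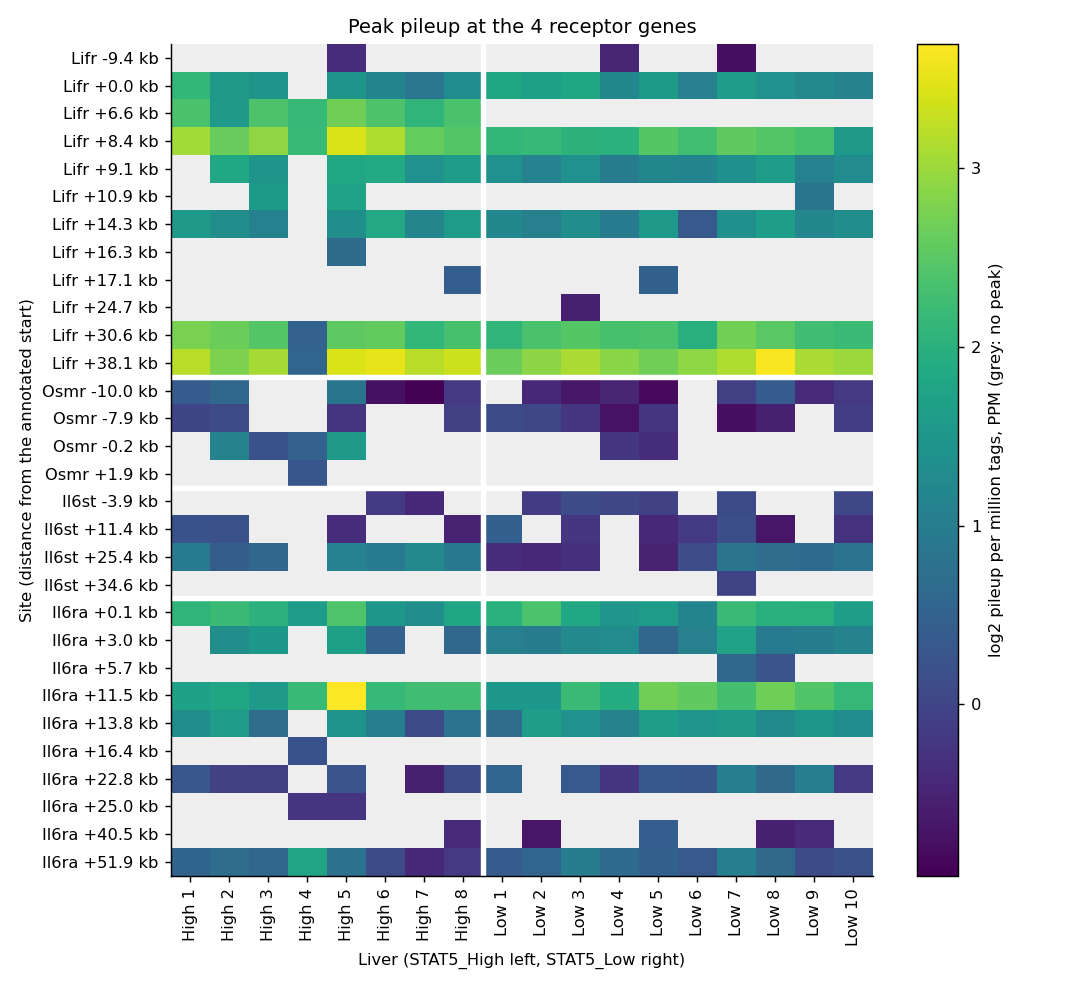
Pileup in PPM (log2, colour) at each of the 30 sites (rows, named by gene and distance from the annotated start in kb) in each liver (columns, STAT5_High left, STAT5_Low right), with grey where a liver had no peak. The Lifr +6.6 kb row is coloured in all 8 STAT5_High livers and grey in all 10 STAT5_Low livers, and rows of Osmr and Il6st are darker and more broken than those of Lifr and Il6ra.

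Presence was compared over the 15631 sites of the genome with a peak in 5 to 13 livers (two-sided Fisher's exact test, Benjamini-Hochberg over all of them, called at an adjusted p up to 0.05). Of all tested sites, 0.979% were called more often present in STAT5_High and 0.134% less often. At the 4 genes, 6 sites were tested, and 1 was called, the Lifr 6.6 kb site, from which nothing is read because it led to the choice of the genes. The other 5, 2 each at Osmr and Il6st and 1 at Il6ra, had adjusted p-values of 0.531 to 0.855 by Fisher's exact test. The collection code in a liver's title (G74A, G92 or G99) covered both classes unevenly, with 2, 3 and 3 STAT5_High livers and 5, 2 and 3 STAT5_Low livers. Stratified by that code, the exact test called 0 sites in the whole genome, where 1741 of 15631 had an unadjusted p under 0.05. Its smallest p, 0.000238 for a complete split, cannot on its own pass the threshold over 15631 sites. The 0 calls therefore decide nothing about the collection. Of the other 5 sites, 0 had an unadjusted p under 0.05 by either test.

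**Figure D2:**
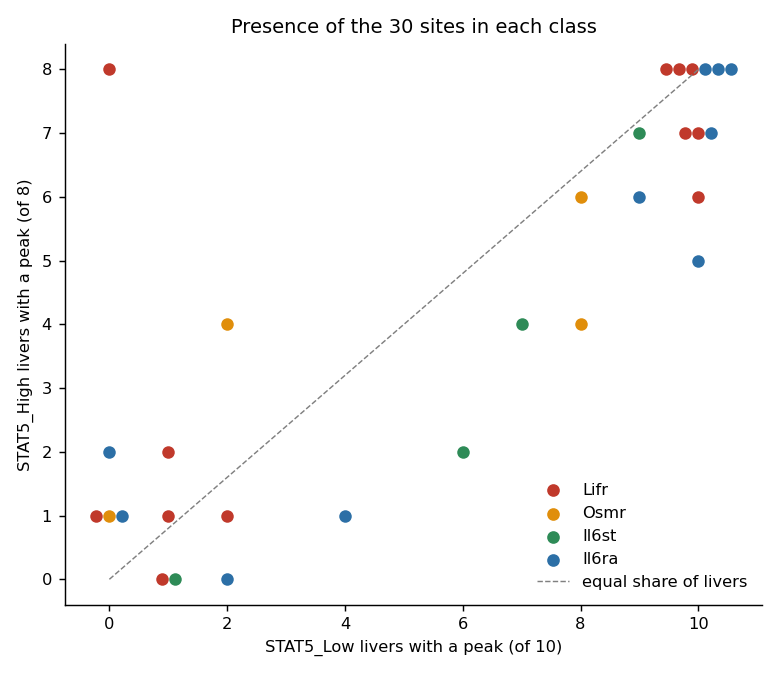
Number of STAT5_High livers with a peak (vertical, of 8) against the number of STAT5_Low livers with a peak (horizontal, of 10) for each of the 30 sites, coloured by gene, with points at the same place spread sideways. The Lifr site at 8 and 0 lies alone at the upper left, and most other sites lie near the dashed line of equal shares.

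Lifr, the receptor chain for leukaemia inhibitory factor (ENSMUSG00000054263.5, chr15:7079559-7147489, forward strand), had 12 of the 30 sites. Close together in its first intron, DNase-seq gave the site at 6.6 kb, the site shared by all livers at 8.4 kb and a weaker site at 9.1 kb. Among single livers, the 6.6 kb site had a peak in STAT5_High only, and the pooled STAT5_Low list held a peak there at 0.985 PPM. In every one of the 3 collections the 6.6 kb site had a peak in all STAT5_High livers and in no STAT5_Low liver. This follows from the complete split that led to the choice of the genes and adds no support to it.

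The 6.6 kb site (chr15:7085907-7086454, intron 1) had a lowest pileup of 2.96, a median of 5.13 and a highest of 6.45 PPM in the 8 STAT5_High livers. Its fold enrichment over the local background, as the authors' peak caller gave it, was 3.52 to 7.38 in those livers (median 5.13), and the 10 STAT5_Low livers had no peak. STAT5_High replicate 4, the library with the weakest peaks, stood at 4.49 PPM here, within the range of the other 7 livers. A missing peak is a value under the calling limit and not a value of 0. Among peaks with a like local background (tag number in 10 kb within 10% of that around the 8.4 kb site), the lowest pileup that was called was 1.48 to 2.68 PPM in STAT5_High livers (median 2.09) and 1.24 to 1.65 in STAT5_Low livers (median 1.44). In the lists called on the pooled reads of each class, the site had 4.64 PPM in STAT5_High and 0.985 in STAT5_Low, a ratio of 4.71.

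The 8.4 kb site (chr15:7087559-7088299, intron 1) had a peak in all 18 livers. Its pileup ranged from 4.56 to 10.9 PPM in STAT5_High livers (median 6.86) and from 2.95 to 5.90 in STAT5_Low livers (median 4.67). The ranges overlapped, and 6 of the 8 STAT5_High livers were above the highest STAT5_Low liver. The mean was 7.22 ± 2.07 PPM in STAT5_High (SD, n = 8) and 4.68 ± 0.879 in STAT5_Low (SD, n = 10). The log2 difference of 0.60 (SE 0.21) was not past the threshold over the 11748 sites tested (limma, adjusted p = 0.112), where 3.86% of all sites were called higher in STAT5_High and 0.238% lower. At the 4 genes, 0 of the 6 sites tested were called in either direction by limma, and 1 of the 6 had an unadjusted p under 0.05.

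Other measures of the same site gave other sizes. With each liver centred on its own median over the 11748 sites, which moved the median log2 difference of all sites to -0.06 from the uncentred -0.17, the log2 difference was 0.72 (SE 0.15) and passed the threshold (limma, adjusted p = 0.00149), in a fit that called 7.35% of all sites higher in STAT5_High. In that scale, 6 of 8 STAT5_High livers were again above the highest STAT5_Low liver, at 1.52 to 2.73 times the liver's median site, against 0.826 to 1.73 times in STAT5_Low livers. Without STAT5_High replicate 4, the uncentred difference was 0.69 (limma, adjusted p = 0.00899). With fold enrichment in place of pileup, the log2 difference was 0.08 (limma, adjusted p = 0.864), and the fold enrichment itself had medians of 7.19 in STAT5_High and 6.95 in STAT5_Low. Within the collections, the log2 difference in pileup was 0.67 in G74A, 0.43 in G92 and 0.61 in G99.

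**Figure D3:**
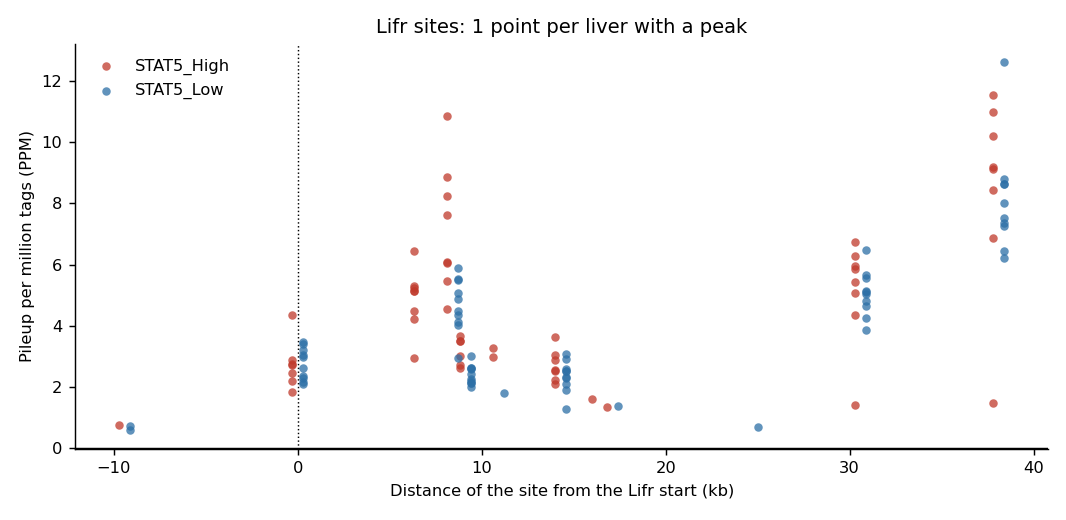
Pileup in PPM (vertical) of every Lifr peak against the distance of its site from the Lifr start in kb (horizontal), with 1 point per liver, STAT5_High drawn to the left in red and STAT5_Low to the right in blue. Only red points stand at 6.6 kb, red points reach higher at 8.4 kb (4.56 to 10.9, against 2.95 to 5.90), and the 2 low red points at 30.6 and 38.1 kb are STAT5_High replicate 4.

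The local background around these intron 1 sites differed in the same direction as the pileup. The number of tags within 5 kb either side of a summit was worked back from the deposited pileup and fold enrichment, a measure added after the data had been seen. Around the 8.4 kb summit it was 28.1 to 61.9 per 1000000 library tags in STAT5_High livers (median 46.8) and 27.4 to 39.4 in STAT5_Low livers (median 31.3), and 7 of 8 STAT5_High livers were above the highest STAT5_Low liver. That window takes in the 6.6 kb site, so these values are given without a test. The share of other windows that split in this way was not counted. The 9.1 kb site, 6 of 8 and 10 of 10 livers, and the 10.9 kb site, 2 of 8 and 1 of 10 livers, lie in the same stretch. At 9.1 kb, pileup was 2.63 to 3.69 PPM in the STAT5_High livers with a peak and 2.01 to 3.03 in STAT5_Low livers.

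At the Lifr start and further into the gene the classes overlapped. The start site (chr15:7078755-7080309, 5′ UTR and upstream) had a peak in 7 of 8 STAT5_High livers, all but replicate 4, at 1.83 to 4.34 PPM (median 2.72), and in 10 of 10 STAT5_Low livers at 2.103 to 3.49 (median 2.79). The strongest Lifr site, at 38.1 kb over a coding exon (chr15:7116672-7118645), had 1.48 to 11.5 PPM in STAT5_High livers (median 9.16) and 6.21 to 12.6 in STAT5_Low livers (median 7.77). The site at 30.6 kb in intron 4 had 1.41 to 6.73 PPM in STAT5_High livers (median 5.65) and 3.87 to 6.49 in STAT5_Low livers (median 5.07). Their log2 differences were -0.11 (SE 0.26) and -0.08 (SE 0.23), with adjusted p-values of 0.821 and 0.839 in limma, and both differences were positive without STAT5_High replicate 4. Tags in 10 kb around them, a window free of the 6.6 kb site, differed by 0.04 and 0.11 on the log2 scale (limma, adjusted p = 0.874 and 0.631). With each liver centred, the 30.6 kb window passed the threshold at 0.27 (SE 0.07, limma, adjusted p = 0.0144), in a fit that called 8.13% of windows higher in STAT5_High, and the 38.1 kb window stood at 0.20 (limma, adjusted p = 0.172). Uncentred, 2.95% of the 10620 windows were called higher in STAT5_High and 1.18% lower, and of the 5 windows tested at the 4 genes 0 were called by limma and 0 had an unadjusted p under 0.05. These 2 sites were described after their values were seen.

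Other starts inside Lifr had few peaks. At the start of the transcript Lifr-203, 24.7 kb in, 0 of 8 STAT5_High livers and 1 of 10 STAT5_Low livers had a peak, at 0.687 PPM. A second RefSeq start lies in the 10.9 kb site, whose peaks were at 2.99 and 3.28 PPM in 2 STAT5_High livers and at 1.80 in 1 STAT5_Low liver. Summed over its 3 sites shared by all livers, Lifr averaged 20.8 ± 6.23 PPM in STAT5_High (SD, n = 8) and 17.9 ± 2.72 in STAT5_Low (SD, n = 10), a log2 difference of 0.15 (SE 0.20, limma, adjusted p = 0.685). It was 0.33 with each liver centred (SE 0.11, limma, adjusted p = 0.0923), 0.60 with stricter peaks (SE 0.21, limma, adjusted p = 0.380) and -0.10 with fold enrichment (limma, adjusted p = 0.872). In that gene-level fit over 9627 genes, 0.883% were called higher in STAT5_High and 0.0208% lower, and of the 2 receptor genes with a value 0 were called and 0 had an unadjusted p under 0.05.

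**Figure D4:**
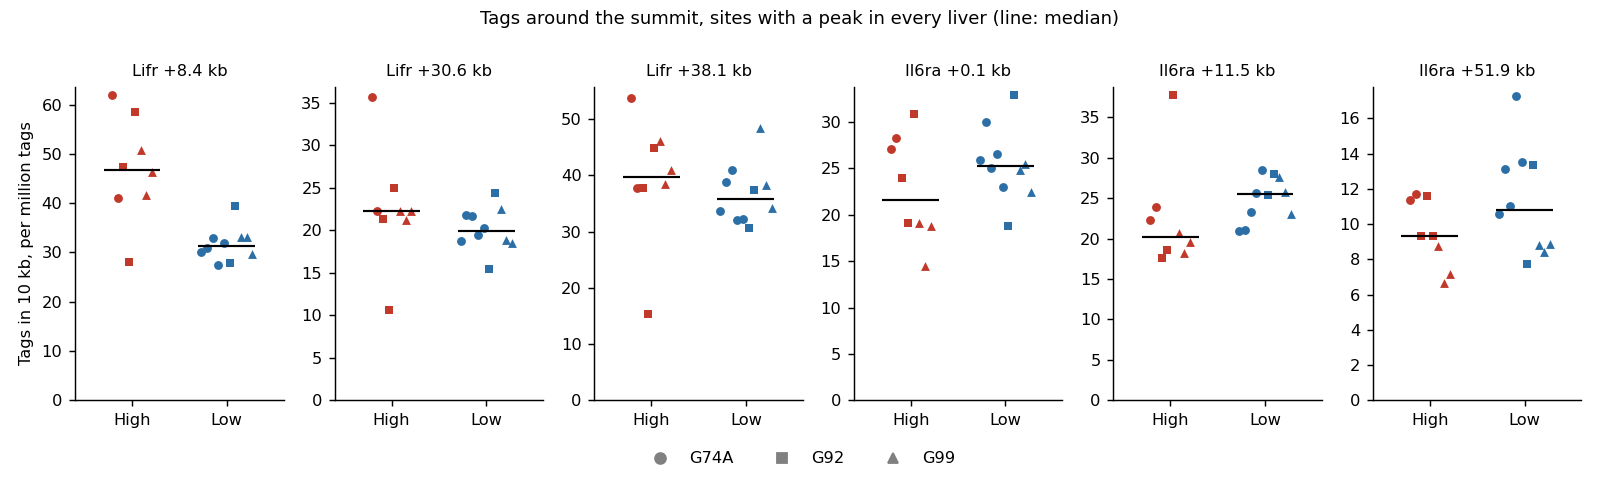
Tags (per 1000000 library tags) within 5 kb either side of the summit (vertical) at the 6 sites with a peak in every liver, STAT5_High left and STAT5_Low right in each panel, with marker shapes for the collection code and a line for the median. At Lifr +8.4 kb 7 of 8 STAT5_High points lie above all STAT5_Low points (median 46.8 in STAT5_High, 31.3 in STAT5_Low), and in the other 5 panels at most 2 STAT5_High points do.

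Il6ra, the ligand-binding chain for interleukin-6 (ENSMUSG00000027947.7, chr3:89673246-89717084, reverse strand), was open at its start in every liver. The start site (chr3:89716263-89717608) had 2.57 to 5.31 PPM in STAT5_High livers (median 3.75) and 2.21 to 5.21 in STAT5_Low livers (median 3.74). The means were 3.77 ± 0.961 (SD, n = 8) and 3.65 ± 0.898 (SD, n = 10), and the log2 difference was 0.05 (SE 0.21, limma, adjusted p = 0.909).

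The 11.5 kb site in intron 1 (chr3:89705219-89705984), the strongest of Il6ra by median and described after its values were seen, set 1 liver apart. STAT5_High replicate 5 had 12.96 PPM there, against 2.93 to 4.83 in the other 7 STAT5_High livers and 2.87 to 6.45 in STAT5_Low livers. Its fold enrichment of 16.0 was also the highest of all livers, with 5.94 to 10.6 in STAT5_Low livers. The class medians were 4.51 in STAT5_High and 4.82 in STAT5_Low, and the log2 difference was 0.00 (limma, adjusted p = 0.999), or -0.21 without that liver (limma, adjusted p = 0.558). The same liver had the highest pileup of all 18 at the Lifr 8.4 kb site.

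The remaining Il6ra sites were weaker. The 51.9 kb site beyond the gene's end (chr3:89664855-89665517) had a peak in all livers, at 0.743 to 3.40 PPM in STAT5_High (median 1.47) and 1.09 to 2.06 in STAT5_Low (median 1.43), with a log2 difference of -0.06 (SE 0.22, limma, adjusted p = 0.878). Its highest value was in STAT5_High replicate 4, which had the lowest values at the Lifr 30.6 and 38.1 kb sites. In the peak lists as deposited, the largest difference in presence at Il6ra was at 3.0 kb in intron 1 (chr3:89713760-89714411), with a peak in 5 of 8 STAT5_High livers at 1.43 to 3.22 PPM and in 10 of 10 STAT5_Low livers at 1.49 to 3.30. With peaks in 15 livers it lay outside the range tested. With equal numbers of top peaks per liver, 2 of 8 STAT5_High livers and 2 of 10 STAT5_Low livers had this peak, and 2 of 8 STAT5_High livers and 8 of 10 STAT5_Low livers had that of the 13.8 kb site (Fisher's exact test, adjusted p = 0.269). The 25.0 kb site, which holds matches to the STAT, FOXA and AP-1 motifs, had a peak in 2 STAT5_High livers, at 0.834 and 0.836 PPM, and in 0 STAT5_Low livers. Summed over its 3 shared sites, Il6ra averaged 10.5 ± 3.95 PPM in STAT5_High (SD, n = 8) and 9.91 ± 1.35 in STAT5_Low (SD, n = 10), with a log2 difference of 0.03 (SE 0.20, limma, adjusted p = 0.937).

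Osmr, the oncostatin M receptor chain (ENSMUSG00000022146.5, chr15:6763577-6824313, reverse strand), had weak sites and none present in all livers. At its start (chr15:6824081-6824865) 4 of 8 STAT5_High livers had a peak, at 1.16, 1.41, 2.17 and 2.93 PPM, and 2 of 10 STAT5_Low livers, at 0.789 and 0.855. The 4 STAT5_High values were all above the 2 STAT5_Low values, and how often other sites separate in this way was not counted. The presence did not differ past the threshold (Fisher's exact test, adjusted p = 0.673). By collection, the STAT5_High peaks came from 1 of 2 livers in G74A, 3 of 3 in G92 and 0 of 3 in G99, and both STAT5_Low peaks from the 5 livers of G74A. In the pooled lists the start site had 1.02 PPM in STAT5_High and 0.379 in STAT5_Low, a ratio of 2.69. Upstream, the 7.9 kb site had a peak in 4 of 8 STAT5_High livers and 8 of 10 STAT5_Low livers (Fisher's exact test, adjusted p = 0.673), at 0.836 to 1.09 PPM in STAT5_High and 0.590 to 1.09 in STAT5_Low. The 10.0 kb site, the last one inside the 10 kb limit at a gap of 9.6 kb from the gene, was present in 6 of 8 STAT5_High livers and in 8 of 10 STAT5_Low livers. Beyond the limit, a pair of sites 16.7 and 17.4 kb upstream, described after their values were seen, had peaks in 7 and 6 of 8 STAT5_High livers and in 2 of 10 STAT5_Low livers each. At the first of them (chr15:6840986-6841518) pileup was 1.19 to 2.69 PPM in STAT5_High and 0.569 to 0.884 in STAT5_Low, and the presence was not called (Fisher's exact test, adjusted p = 0.187 and 0.337 at the pair).

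Il6st, the shared signalling chain gp130 (ENSMUSG00000021756.5, chr13:113265216-113297068, forward strand), had no peak within 1 kb of its GENCODE start in any liver. The RefSeq promoter of Il6st (GRCm38.p6), found once in mm9 by its letters at chr13:113254028-113254327, instead lay in a site just outside the 10 kb limit, 10.4 kb upstream of the GENCODE gene (chr13:113253453-113254801). That site had a peak in all 18 livers, at 2.89 to 8.30 PPM in STAT5_High (median 4.77) and 3.85 to 6.31 in STAT5_Low (median 4.28). The classes overlapped, with a log2 difference of 0.08 (SE 0.22, limma, adjusted p = 0.843). RefSeq promoters of Osmr and Il6ra and 1 of the 2 of Lifr lay in the sites described at their starts, and the other Lifr promoter in the 10.9 kb site.

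The strongest site in the Il6st body, at 25.4 kb in intron 12 (chr13:113290262-113290992), is described after its values were seen. It had a peak in 7 of 8 STAT5_High livers, all but replicate 4, at 1.33 to 2.34 PPM (median 1.95), and in 9 of 10 STAT5_Low livers at 0.696 to 1.77 (median 1.11). STAT5_Low livers split by collection code, with 0.696 to 0.801 PPM in the 4 G74A livers with a peak, 1.11 and 1.77 in G92 and 1.59 to 1.76 in G99. STAT5_High livers had 1.33 and 1.95 PPM in G74A, 1.497 and 2.15 in the G92 livers with a peak, and 1.89 to 2.34 in G99. Among livers with a peak, every STAT5_High value was above every STAT5_Low value within G74A and within G99, and within G92 they overlapped. These are sets of 2 and 4 livers in G74A and 3 and 3 in G99. How often other sites separate in this way was not counted. The site was not in either test, since 16 livers had a peak. Upstream, the 3.9 kb site had a peak in 2 of 8 STAT5_High livers, at 0.743 and 0.892 PPM, and in 6 of 10 STAT5_Low livers, at 0.906 to 1.09 (Fisher's exact test, adjusted p = 0.531). At the 11.4 kb site, 4 of 8 STAT5_High livers and 7 of 10 STAT5_Low livers had one (adjusted p = 0.855 by Fisher's exact test).

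**Figure D5:**
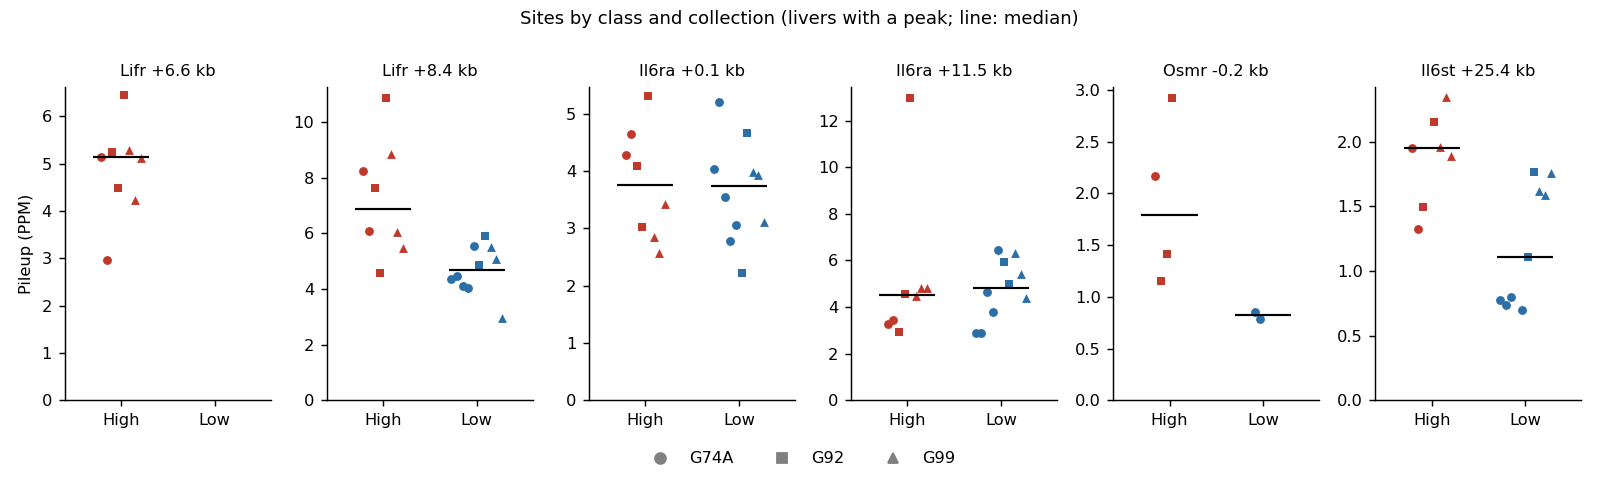
Pileup in PPM (vertical, each panel with its own scale from 0) at 6 sites in the livers with a peak, STAT5_High left and STAT5_Low right, with marker shapes for the collection code and a line for the median. Lifr +6.6 kb has no STAT5_Low point, 1 STAT5_High liver at 12.96 PPM stands above the rest at Il6ra +11.5 kb, and G74A livers (circles) lie lowest among STAT5_Low at Il6st +25.4 kb.

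The pooled lists, 1 per class and so without a test, held 28 STAT5_High and 33 STAT5_Low peaks at the 4 genes. Of 57780 regions in both lists, 6.69% were over 1.5-fold higher in STAT5_High and 6.68% over 1.5-fold lower, with a median log2 ratio of -0.15. Of the 26 regions shared at the 4 genes, 3 were over 1.5-fold higher and 1 over 1.5-fold lower, with a median log2 ratio of 0.02. The 3 were the Lifr 6.6 kb site, the Osmr start and the region joining the Lifr 8.4 and 9.1 kb sites, at 6.81 PPM in STAT5_High and 4.46 in STAT5_Low (ratio 1.53). The Lifr 6.6 kb site led to the choice of the genes and the joined region lies beside it, so nothing is read from the count of 3. The 1 lower was the Il6ra 22.8 kb site, at 0.754 in STAT5_High and 1.17 in STAT5_Low (ratio 0.642). The pooled peak at Lifr 6.6 kb had a fold enrichment of 5.05 in STAT5_High and 1.61 in STAT5_Low. Of the 28 STAT5_High and 33 STAT5_Low peaks of the pooled lists at these genes, 1 and 7 overlapped no peak of a single liver, at 0.265 to 1.104 PPM.

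Per kb of gene and flanks, summed pileup was 0.136 to 0.553 PPM at Lifr in STAT5_High and 0.249 to 0.369 in STAT5_Low, and at Il6ra 0.155 to 0.438 in STAT5_High and 0.210 to 0.338 in STAT5_Low. The ranges of Lifr and Il6ra overlapped and lay above those of Osmr, at most 0.0688 in STAT5_High and 0.0270 in STAT5_Low, and, within the 10 kb limit, of Il6st, at most 0.0600 in STAT5_High and 0.0955 in STAT5_Low. Not divided by length, over all sites with a peak, summed pileup per liver was 11.9 to 48.7 PPM at Lifr in STAT5_High and 21.9 to 32.5 in STAT5_Low. It was 9.88 to 27.9 at Il6ra in STAT5_High and 13.4 to 21.6 in STAT5_Low. Osmr and Il6st overlapped each other, at 0.514 to 5.55 and 0 to 3.11 in STAT5_High and at 0 to 2.18 and 1.03 to 4.95 in STAT5_Low. These values rest on the 10 kb limit, which leaves out the RefSeq promoter site of Il6st. With that site, Il6st summed to 2.89 to 11.2 PPM in STAT5_High, overlapping Il6ra, and to 5.09 to 11.3 in STAT5_Low, below Il6ra. Among all sites present in every liver, the Lifr 38.1 kb site stood at percentile 92.9 for median pileup, the Lifr 8.4 kb site at 77.5 and the Il6ra 51.9 kb site at 4.89.

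Genes whose gene-level pileup varied most like that of a receptor over the 18 livers were named by Pearson's r of log2 values centred per liver, as a description, since all genes share the same libraries. For Lifr these were Igf2r, the cation-independent mannose 6-phosphate receptor (r = 0.896), and Rwdd1 and Gm17237, which share their sites (r = 0.890 for both). For Il6ra these were Gcnt2 (r = 0.962), a glycosyltransferase gene, Suclg2 (r = 0.945), a subunit of succinyl-CoA ligase, and the transcription factor gene Klf12 (r = 0.941). Before centring, STAT5_High replicate 5 had an Il6ra sum of 20.0 PPM. The STAT5_High median was 9.05, and STAT5_Low livers had 8.16 to 11.9. The part of that 1 liver in these r values was not tested. Lifr and Il6ra had r = 0.206 with each other.

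Other genes of the pathway were counted from lists chosen with earlier results of these data known, in gene bodies and 10 kb around. The calls below are from limma for pileup and Fisher's exact test for presence. Among the 9 ligand genes 0 of 4 sites tested for pileup and 0 of 2 tested for presence were called, and among the 4 other receptor genes 0 of 2 and 0 of 2. Among the 8 JAK-STAT3 signalling genes 0 of 8 and 0 of 11 were called. In these 3 lists an unadjusted p under 0.05 was reached by 0 sites for pileup and by 1 for presence, at a ligand gene. Among the 7 feedback inhibitor genes 2 of 9 were called higher in STAT5_High for pileup, at Cish and Socs2, both inhibitors of cytokine signalling known to be induced by STAT5, beside 3.86% of all sites, and 0 of 7 for presence, where 2 had an unadjusted p under 0.05. The Cish site had medians of 13.3 PPM in STAT5_High and 5.23 in STAT5_Low (log2 difference 1.37, SE 0.21, limma, adjusted p = 8.46e-06), and the Socs2 site 7.69 and 2.54 (1.39, SE 0.22, limma, adjusted p = 1.29e-05). Socs3, the main inhibitor induced by STAT3, had no site called.

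The acute phase list held 20 genes, many of which encode plasma proteins induced by interleukin-6. Of its sites, 3 of 25 were called higher in STAT5_High for pileup, beside 3.86% of all sites, and 1 of 21 for presence, beside 0.979%. Stratified by collection, the presence call was not made, but that test called 0 sites in the whole genome and so decides nothing about this one. These were at the fibrinogen genes Fga, Fgb and Fgg and at Orm1, which has a near-identical neighbour, Orm2, that short tags may not tell apart. The Fga and Fgb site had medians of 10.2 PPM in STAT5_High and 4.02 in STAT5_Low (log2 difference 1.55, SE 0.24, limma, adjusted p = 5.58e-06). The Orm1 site had 9.91 in STAT5_High and 2.67 in STAT5_Low (1.59, SE 0.27, limma, adjusted p = 2.84e-05). With each liver centred and with collection as a covariate the 5 sites called for pileup in these last 2 lists were all called higher again. With fold enrichment in place of pileup their log2 differences were 0.11 to 0.59, and 1 of the 5, at Orm1, was called (limma). None of the sites at the 5 lists was called lower in STAT5_High, out of 48 tested for pileup with limma and 43 for presence with Fisher's exact test. Over all sites, 0.238% were called lower for pileup and 0.134% for presence, so nothing is read from these counts of 0. The median log2 pileup difference was 0.34 for the feedback inhibitors and 0.32 for the acute phase genes, beside -0.17 over all 11748 sites, and -0.19, -0.34 and -0.11 for the ligands, the other receptors and the JAK-STAT3 genes.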

How the data were processed

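The series holds DNase-seq libraries of 21 livers, and the 18 with a peak list were used here. The submitters' processing notes name Bowtie2, MACS2 and mm9, and MACS version 2.1.0.20150731, a 200 bp extension and a q cutoff of 0.05 stand in the file headers. The deposited lists give each peak's pileup (a signal, per the file headers), its fold enrichment (a ratio, per the file headers) and −log10 p and q, per the file headers. There is 1 list for each of the 18 livers and 1 per class from pooled reads.

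Pileup was divided by the header's tag number and given per 1000000 tags, and peaks were joined by 1 bp of overlap (pandas 2.3.3, numpy 2.4.6). Presence was tested with Fisher's exact test (scipy 1.17.1) on sites in 5 to 13 livers, and log2 pileup with limma 3.58.1 (trend, R 4.3.3) on sites in all 18. Called means an adjusted p up to 0.05 (Benjamini-Hochberg). Tags in 10 kb were solved from fold enrichment, and 100% of 567253 values came out whole within 0.1 tag. Both tests were checked on simulated data. Genome coordinates and letters are mm9; annotated starts are GENCODE vM1.

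Members and lists were chosen with earlier results of these data known. Sites given in full were each gene's start site, sites past a threshold, and per gene the largest difference in presence and in pileup. Alternatives were other peak thresholds, overlaps, scalings, a filter on low sites, collection as a covariate, the replicate block and leaving out each liver. The depth limits which peaks were called. What the title codes G74A, G92 and G99 stand for is not given in the sources used here.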

Additional observations from a re-analysis of the deposited data

Results flagged for a closer look

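In each class with a value in every liver (40 sets of 8 or 10 values at the 4 genes), the highest or lowest liver was compared with its nearest neighbour relative to the whole range. This set 13 values apart, and chance sets apart about 1 set in 20. The sets were not independent, since pileup, tags in 10 kb and gene-level sums share sites and livers, and neighbouring windows overlap. The rate over other sites of the genome was not counted, so no excess at these genes is read from the 13. At the Il6ra 11.5 kb site STAT5_High replicate 5 was highest, with a pileup of 12.96 PPM and 37.8 tags in 10 kb per 1000000 library tags, and the same liver gave the highest Il6ra gene-level sum, 20.0 PPM. STAT5_High replicate 4, the library with the fewest peaks, was lowest at Lifr 30.6 kb (1.41 PPM) and at Lifr 38.1 kb (1.48 PPM and 15.3 tags in 10 kb per 1000000 library tags) and gave the lowest Lifr gene-level sum, 7.45 PPM. It was highest at the Il6ra 51.9 kb site, at 3.40 PPM.

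Among STAT5_Low livers, replicate 7 was highest for tags in 10 kb per 1000000 library tags at Lifr 8.4 kb (39.4) and at Lifr 9.1 kb (41.6), and for pileup at Il6ra 3.0 kb (3.30 PPM). STAT5_Low replicate 8 was highest at Lifr 38.1 kb, at 12.6 PPM. STAT5_Low replicate 6 was lowest for tags in 10 kb per 1000000 library tags at the Lifr start, at 15.1. The part of library quality in these values was not tested.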

How the results depend on the processing

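With the replicate block and with collection as strata, 0 sites of the 4 genes and 0 of the whole genome were called for presence. Otherwise 1 was called, also with each liver left out, the Lifr 6.6 kb site from which the genes were chosen, so the count supports nothing. Its complete split between classes was the same in both of those tests. The smallest unadjusted p of any site was 0.00781 with the block (677 sites under 0.05) and 0.000238 with strata (1741), against 2.29e-05 in Fisher's exact test. With the block and with strata, that is the p of a complete split. Over 18343 and 15631 sites tested, it cannot pass the threshold unless many other sites have low p-values as well. The 0 calls therefore decide nothing about pairing or collection. Same-numbered livers correlated at -0.158 to 0.378 over 8 pairs, 4 of them over 0.1. Some of these pairs share a collection code and others do not. Of the 8 STAT5_High livers, 1 correlated best with the STAT5_Low liver of its own number. Whether the numbers mark true pairs was not tested further. Called sites for pileup were 0 of 6, but 1 (Lifr 8.4 kb) with each liver centred, and 0 to 1 when livers were left out, 1 only without STAT5_High replicate 4. Called windows for tags in 10 kb were 0 of 5, but 1 (Lifr 30.6 kb) with each liver centred. Over the genome, centring raised pileup calls to 864 higher and 145 lower in STAT5_High, against 453 and 28 uncentred, and presence calls were 281 higher and 32 lower with stricter peaks and 455 and 40 with equal numbers of top peaks, against 153 and 21. Pooled regions over 1.5-fold lower were 0 with fold enrichment and 0 with centred ratios, against 1.

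None of the following differences passed a threshold in any setting. The gene-level difference of Il6ra was 0.03, but 0.21 centred, 0.17 with fold enrichment, -0.029 with collection as a covariate, and -0.116 to 0.0701 with a liver left out. That of Lifr was 0.15, but 0.33 centred, -0.10 with fold enrichment, and 0.08 to 0.29 with a liver left out. With stricter peaks the Lifr gene-level value was 0.60, which is the 8.4 kb site alone. Site differences turned sign at Lifr 30.6 kb (0.029 centred; -0.16 to 0.16 with a liver left out), at Lifr 38.1 kb (0.0078 centred; -0.20 to 0.23), at Il6ra 51.9 kb (0.0517 centred, 0.10 with fold enrichment; -0.245 to 0.0685), at Il6ra 11.5 kb (-0.14 with collection; -0.213 to 0.0939) and at the Il6ra start (-0.0303 to 0.119). Tags in 10 kb at Lifr 38.1 kb differed by -0.0351 to 0.225. The cause was not tested. Peak lists give no value below the calling limit, and the tag number of a library limits which weak sites are seen.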
